A study of Mus musculus with 2 samples.

Results

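The muscle miRNAs miR-1, miR-133 and miR-206 were followed in microRNA sequencing of the embryonic mouse heart. Their loci are the 6 rows Mir1a-1, Mir1b, Mir133a-1, Mir133a-2, Mir133b and Mir206, taken by gene identifier from the 1973 miRNA gene rows of each table. All 6 had a row, and 5 of them held sense counts in both libraries. The hearts came from healthy B6NCrl embryos at 13.5 days, males and females pooled, and the labels name no treatment and no engineered allele. They form 1 group of 2 libraries, which the labels call biological replicates and trace to different biosamples under 1 donor record, so p-values below compare those libraries and no condition. Replicate 1 held 5569959 sense counts and replicate 2 held 6039005. Levels are given as sense counts per 1000000 sense counts of the library (CPM).

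In muscle, miR-1 and miR-133 are cut from shared primary transcripts, each of which carries 1 hairpin of either kind. The pair Mir1a-1 with Mir133a-2 and the pair Mir1a-2 with Mir133a-1 are known from heart and skeletal muscle. The pair Mir206 with Mir133b is known from skeletal muscle. An miRNA recognises its targets mainly through its seed, bases 2 to 8. miR-1 and miR-206 are known to promote muscle differentiation and have a seed in common, while miR-133 is known to hold back smooth muscle genes in the heart through serum response factor.

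Mature sequences are shown because the loci differ in how much sequence they have in common. They come from RefSeq on GRCm38.p6, 5′ to 3′, with the seed in capitals, and 3 of the 6 loci had an entry.
miR-206-3p, chr1:20679055-20679076, plus strand: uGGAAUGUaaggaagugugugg
miR-206-5p, chr1:20679017-20679039, plus strand: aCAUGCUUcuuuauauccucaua
miR-1a-1-5p, chr2:180389057-180389079, plus strand: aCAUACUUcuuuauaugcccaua
miR-133b-3p, chr1:20682834-20682855, plus strand: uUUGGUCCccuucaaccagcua
miR-133b-5p, chr1:20682797-20682818, plus strand: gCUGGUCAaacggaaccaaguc
The 5p arms of miR-1a-1 and miR-206 were alike at 20 of 23 bases. Counted from the 5′ end, with miR-1a-1 first, the differences were A5G, G17C and C19U, and the first of these lies in the seed. None of these 5 mature sequences occurred exactly in another annotated mouse hairpin. miR-133b-3p came closest, since 1 mismatch sufficed for it to match the hairpins of Mir133a-1 and Mir133a-2. Both arms of miR-206 matched no other hairpin at 2 mismatches or fewer, and at 4 mismatches matched only Mir1a-1, Mir1a-2 and Mir1b. Either strand of a hairpin could match. In the RefSeq table of 1738 mature entries, the seed of miR-206-3p was also found in miR-6349 and miR-6382, whose rows held 0 counts in both libraries. That table has no entry for the 3p arm of miR-1a. The seed that miR-1 and miR-206 have in common could therefore not be found this way, and the 5p arms do not show it.

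The whole Mir206 hairpin is shown because it was the one locus of the 6 above 10 CPM. It spans chr1:20679010-20679082 on the plus strand, 73 bases, with both mature arms in capitals.
Mir206: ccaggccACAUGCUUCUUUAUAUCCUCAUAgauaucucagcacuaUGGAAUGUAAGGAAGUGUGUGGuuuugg
No run of 22, 20 or 18 bases of this hairpin was found in another annotated miRNA hairpin.

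Loci are given on mm10 from GENCODE M21. Mir206 (ENSMUSG00000065559.1) lies in an intron of the long noncoding RNA gene Gm28653. Mir133b (ENSMUSG00000065480.1, chr1:20682769-20682887, plus strand) lies 3686 bases further on, in an exon of Gm28653. Mir1a-1 (ENSMUSG00000070144.1, chr2:180389048-180389124, plus strand) precedes Mir133a-2 (ENSMUSG00000065460.1, chr2:180398379-180398482) by 9254 bases, and no other GENCODE gene spans either. RefSeq places both within the long noncoding RNA gene Mir1a-1hg. Mir1a-2 (chr18:10785481-10785552, minus strand) precedes Mir133a-1 (ENSMUSG00000065399, chr18:10782909-10782976) by 2504 bases, both in an intron of Mir133a-1hg and opposite to introns of the ubiquitin ligase gene Mib1. Mir1b (ENSMUSG00000080662.1, chr18:10785446-10785567, plus strand) covers all 72 bases of Mir1a-2 on the other strand. These tables list no row for Mir1a-2 itself. The tables carry an older identifier version for Mir133a-1 than M21 does, so the interval counted there may differ.

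The loci differed in how much of their hairpin is their own. In Mir1a-1, 28 of 77 bases, positions 45 to 72, lay in a run of at least 22 bases shared with Mir1a-2 and Mir1b, and the 5p arm at positions 10 to 32 lay outside it. In Mir133a-2 and Mir133a-1, 55 bases were shared between those loci, in a block of 24 bases and a block of 31 bases. Mir133b had no shared run at 22 bases and shared one with both Mir133a loci at 20 bases. In all, 4 of the 6 loci had a shared run at 22 bases, and 5 did at 20 and at 18 bases. The comparison covered both strands of annotated hairpins only, not the rest of the genome. Mir1a-2 and Mir1b are opposite strands of the same site, which is therefore counted as 2 other loci for Mir1a-1.

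**Figure D1:**
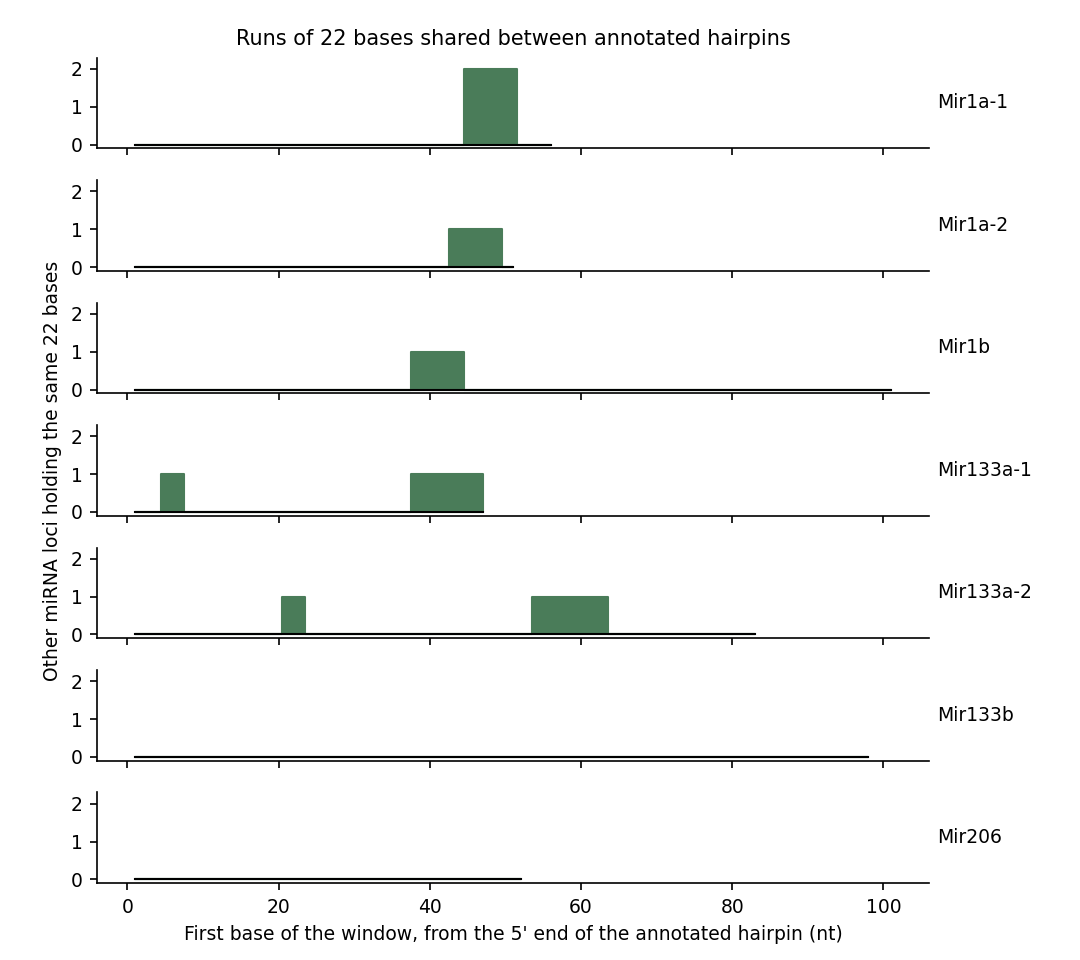
Number of other miRNA loci (vertical axis) that hold, on either strand, the same 22 bases as the window starting at each base of the hairpin (horizontal axis, nucleotides from its 5′ end), for the 6 loci and Mir1a-2; the black line marks the windows a hairpin has. Mir206 and Mir133b stay at 0, Mir1a-1 and Mir1a-2 have 1 shared block, and each Mir133a hairpin has 2.

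Both tables keep a separate line for reads with several mapping positions, which counted 3263825 reads in replicate 1 (26.9% of the library) and 3436774 in replicate 2 (28.0%). Such reads are assumed to be absent from the gene rows, an assumption that the sources neither give nor contradict, and how many of them come from miR-1 or miR-133 was not measured. The 6 rows together held 513 sense counts in replicate 1 and 770 in replicate 2, or 0.0157% and 0.0224% of the number of such reads. Levels at rows with a shared run are therefore levels of the deposited rows, and may be below those of the mature miRNAs.

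Mir206 was the highest of the 6 rows and dominated their sum. It held 443 counts in replicate 1 (79.5 CPM, exact Poisson 95% interval 72.3 to 87.3) and 698 counts in replicate 2 (116 CPM, 107 to 124), a mean of 97.6 ± 25.5 CPM (SD, n = 2). That was 86.4% of the sense counts of the 6 rows in replicate 1 (exact Clopper-Pearson 95% interval 83.1 to 89.2) and 90.6% in replicate 2 (88.4 to 92.6). With the counts opposite to Mir1b, the strand of Mir1a-2, added to the sum, the share was 72.5% (68.8 to 76.0) and 80.4% (77.6 to 83.0). Mir206 ranked 198 and 170 among the 1973 rows, of which 615 (replicate 1) and 621 (replicate 2) held a sense count. The rows closest to it in level, by distance of log2(CPM + 1) over both libraries, were Mir138-2 (92.3 and 119 CPM, distance 0.22), Mir32 (92.5 and 103 CPM, 0.27) and Mir505 (100.4 and 109 CPM, 0.34). Intervals here and below treat reads as independent and cover counting error only. PCR copies are not independent molecules, so the intervals may be too narrow.

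The second locus of that transcript, Mir133b, was far lower. Mir133b held 21 counts in replicate 1 (3.77 CPM, interval 2.33 to 5.76) and 17 in replicate 2 (2.82 CPM, 1.64 to 4.51), a mean of 3.29 ± 0.68 CPM.

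By mean CPM the miR-1a loci came next to Mir206, although in replicate 2 Mir133a-1 (23 counts) lay just above Mir1a-1 (22 counts). The strand of Mir1a-2, read as counts opposite to the Mir1b row, held 98 counts in each library, or 17.6 CPM (interval 14.3 to 21.4) and 16.2 CPM (13.2 to 19.8), with a mean of 16.9 ± 0.97 CPM. Mir1a-1 held 25 counts (4.49 CPM, 2.90 to 6.63) and 22 counts (3.64 CPM, 2.28 to 5.52), with a mean of 4.07 ± 0.60 CPM. The Mir1a-2 strand thus lay above Mir1a-1 in both libraries, by a ratio of 3.92 (replicate 1, exact 95% interval 2.51 to 6.35) or 4.45 (replicate 2, 2.78 to 7.43). Per base of the Mir1a-2 and Mir1a-1 hairpins the ratios were 4.19 and 4.76. With the 122 bases of the Mir1b row, over which these reads were counted, they were 2.47 and 2.81.

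The miR-133a loci were low or without counts. Mir133a-1 held 11 counts in replicate 1 (1.97 CPM, 0.986 to 3.53) and 23 in replicate 2 (3.81 CPM, 2.41 to 5.71), with a mean of 2.89 ± 1.30 CPM. At Mir133a-2 neither library had a single count, and the limit a count of 0 leaves is 3 counts, equal to 0.539 CPM (replicate 1) or 0.497 CPM (replicate 2). Both Mir133a loci carry the 55 shared bases, and the part of these in the counts was not tested. Mir1b, an annotated miRNA antisense to Mir1a-2, held 13 sense counts (2.33 CPM) and 10 sense counts (1.66 CPM), a mean of 1.99 ± 0.48 CPM.

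**Figure D2:**
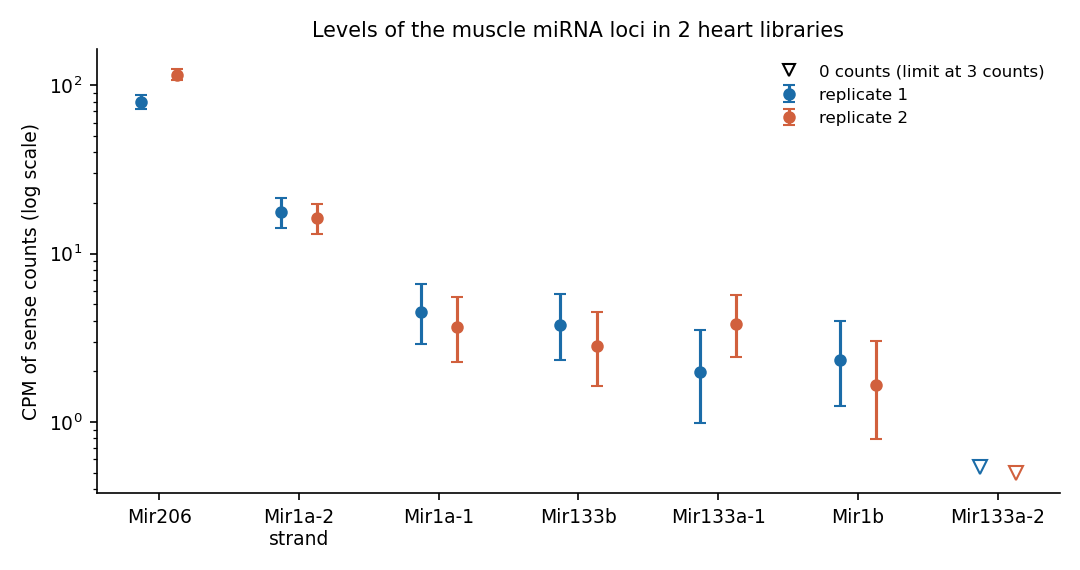
Level of each locus in CPM of sense counts (log scale), 1 point per library with its exact Poisson 95% interval, where the Mir1a-2 strand is the opposite-strand count of the Mir1b row; open triangles mark 0 counts, drawn at the limit of 3 counts. Mir206 at 79.5 and 116 CPM lies above every other locus, and the intervals of Mir1a-1, Mir133b, Mir133a-1 and Mir1b overlap.

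Loci were also set per 100 bases of annotated hairpin, although reads come from the mature arms and need not scale with that length. The order was Mir206 (134 ± 34.9 CPM per 100 bases), the Mir1a-2 strand (23.5 ± 1.34), Mir1a-1 (5.28 ± 0.78), Mir133a-1 (4.25 ± 1.91), Mir133b (2.77 ± 0.57) and Mir1b (1.64 ± 0.39), with Mir133a-2 at 0. Per base of the Mir1b row the Mir1a-2 strand stood at 13.9 ± 0.79 and kept its place. Without the division by length, Mir133b (3.29 CPM) lay above Mir133a-1 (2.89 CPM). The steps from Mir206 to the Mir1a-2 strand and from there to Mir1a-1 were larger than the spread between libraries. Mir1a-1 and Mir133a-1 did not differ beyond that spread, with 5.83 against 2.90 in replicate 1 and 4.73 against 5.60 in replicate 2. Mir133a-1 and Mir133b did not either. Their order turned between the libraries: Mir133a-1 had 0.917 times the counts per base of Mir133b in replicate 1 and 2.37 times in replicate 2. Mir133b lay above Mir1b per base in both libraries (3.17 and 2.37 against 1.91 and 1.36), with overlapping Poisson intervals.

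Over the 1894 rows matched to GENCODE M21, 89 of the 880 with a shared run of 22 bases held a sense count in both libraries (10.1%), against 455 of the 1014 without (44.9%). A mean of 10 CPM or more was reached by 49 rows (5.57%) and 239 rows (23.6%). Among rows with a sense count in both libraries the medians were 17.9 and 13.8 CPM. Of the 6 muscle rows, 3 of the 4 with such a run held a sense count in both libraries and none reached 10 CPM. The Mir1a-2 strand, which has no row of its own, also has such a run and stood above that level, at a mean of 16.9 CPM. Both rows without one held counts, and 1 of them, Mir206, reached 10 CPM. With so few loci this is a description.

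The paired loci of each transcript were then compared within each library, where library size cancels. In all 3 pairs the locus that comes first in the transcript, which is the miR-1 or miR-206 locus, had more counts than the miR-133 locus in both libraries. Shared sequence also differs within the pairs. At 22 bases, each Mir133a hairpin has 55 bases in shared runs, Mir1a-1 and Mir1a-2 have 28, and Mir206 and Mir133b have none. miR-133b-3p matches both Mir133a hairpins at 1 mismatch. The part of reads with several mapping positions in these ratios was not tested. With the 0 of Mir133a-2 set at 3 counts per library, Mir1a-1 exceeded it 8.33-fold in replicate 1 and 7.33-fold in replicate 2. Per base of hairpin these bounds were 11.3 and 9.90. They leave out the counting error of Mir1a-1 itself. Its share of the counts of the pair was 100%, with exact Clopper-Pearson 95% intervals from 86.3% (replicate 1) and 84.6% (replicate 2). The Mir1a-2 strand exceeded Mir133a-1 8.91-fold (replicate 1, exact 95% interval 4.77 to 18.4) or 4.26-fold (replicate 2, 2.68 to 7.03), a mean log2 ratio of 2.62 ± 0.75. Per base these ratios were 8.41 and 4.02 with the length of Mir1a-2, and 4.97 and 2.37 with that of the Mir1b row.

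Mir206 and Mir133b formed the most uneven pair for which a ratio could be measured. Mir206 exceeded Mir133b by 21.1-fold in replicate 1 (13.6 to 34.4) and by 41.1-fold in replicate 2 (25.5 to 70.9), a log2 ratio of 4.88 ± 0.68. Per base of hairpin the ratios were 34.4 and 66.9. The ratio was larger than its spread between libraries in this pair and in that of the Mir1a-2 strand. Whether it differed between the libraries was tested for these 2 pairs by Fisher's exact test (two-sided). The p was 0.0443 for Mir206 with Mir133b and 0.0644 for the Mir1a-2 strand with Mir133a-1, and both were 0.0644 after Benjamini-Hochberg adjustment, so neither passed 0.05.

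**Figure D3:**
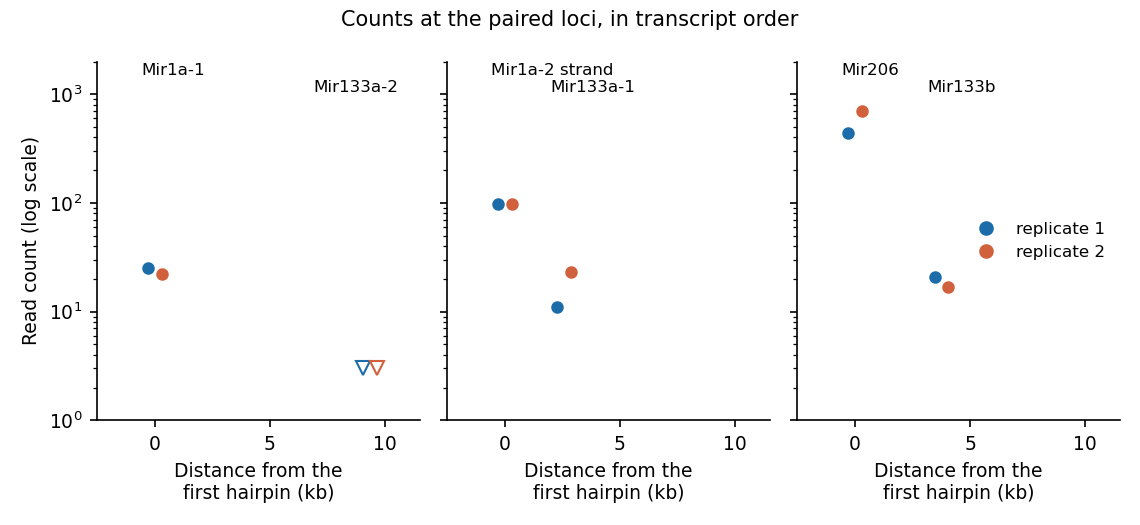
Read counts (log scale) at the loci of each pair against the distance from the start of the first hairpin in kilobases, in the direction of transcription; points of the libraries are shifted sideways to be seen apart, and open triangles mark 0 counts, drawn at 3. In each pair the first locus lies above the second in both libraries, from 443 and 698 counts at Mir206 to 21 and 17 at Mir133b.

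Mir1b was the one row of the 6 with more counts on the opposite strand than on its own, and Mir133a-2 had no count on either. Of the counts at Mir1b, 98 of 111 lay on the opposite strand in replicate 1, or 88.3% (exact Clopper-Pearson 95% interval 80.8 to 93.6). The same share was 90.7% in the other library (98 of 108 counts, 83.6 to 95.5). The Mir1a-2 strand exceeded the sense counts of Mir1b by 7.54-fold and 9.80-fold. Mir206, Mir133b and Mir133a-1 held no opposite count in either library, and at Mir206 the exact interval reaches up to 0.829% and 0.527%. Mir1a-1 held 1 opposite count in each library. Among 376 rows with at least 10 counts on both strands together in each library, 11 (2.93%) had more opposite than sense counts in both, and Mir1b was one of them, while 329 had no opposite count.

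Scaled by total sense counts, no muscle locus was called different between the libraries. Every row and strand with at least 10 counts over both libraries was compared by a two-sided exact binomial test with Benjamini-Hochberg adjustment, and called at an adjusted p under 0.05 with a ratio of at least 1.5 (1 CPM added to each level). The test compares the reads of 2 libraries and takes no account of the spread between further libraries. Of 472 features tested, 9.75% were called, and 43.9% had an adjusted p under 0.05 whatever their ratio. Of the 6 muscle features tested, 0 were called and 1 had an adjusted p under 0.05, which was also the only one with an unadjusted p under 0.05. This was Mir206, higher in replicate 2 with a log2 ratio of 0.53 (exact binomial test, adjusted p = 2.78e-09) and a ratio of 1.45, just under the 1.5 required. With TMM or DESeq2 scaling, the ratio was 1.55 or 1.57 and Mir206 was called.

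The lower loci gave wide intervals. Mir133a-1 had a log2 ratio of replicate 2 over replicate 1 of 0.69, with an exact 95% interval of the count ratio from -0.15 to 2.13 on the log2 scale (exact binomial test, adjusted p = 0.156). The Mir1a-2 strand had a log2 ratio of -0.11 (-0.54 to 0.30), and 0 with DESeq2 scaling. Mir1a-1 had -0.24, Mir133b -0.32 and Mir1b -0.33, with adjusted p-values from 0.538 to 0.664 in the exact binomial test. A doubling of Mir133a-1 was thus within its interval, whereas for the Mir1a-2 strand it was not. The median over all 472 features was -0.10, and scaling with DESeq2 size factors moved it by 0.10. The 46 calls were 14 higher in replicate 2 and 32 higher in replicate 1, against 20 and 22 with TMM scaling and 19 and 17 with DESeq2 scaling.

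Of the liver, red cell and leukocyte markers, Mir122 was called between the libraries, and the part of these cells in the values at Mir206 was not tested. Liver Mir122 was at 201 CPM in the first library and 591 CPM in the second. The red cell miRNAs Mir451a and Mir144 summed to 1159 and 897 CPM, and leukocyte Mir223 stood at 441 and 310 CPM. Mir451a, Mir144 and Mir223 were lower in the second library, with ratios of 0.807, 0.683 and 0.704. Their adjusted p-values in the exact binomial test were 3.55e-23, 7.48e-24 and 1.00e-29. They were not called only because each change lay under the ratio required for a call. Mir486, known from muscle and red cells and outside these marker lists, was also lower in the second library (log2 ratio -0.71) and was called. Mir133b, the other skeletal muscle marker, stood at 3.77 and 2.82 CPM. In RNA from whole tissue, fewer cells of a type and less miRNA per cell cannot be told apart.

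**Figure D4:**
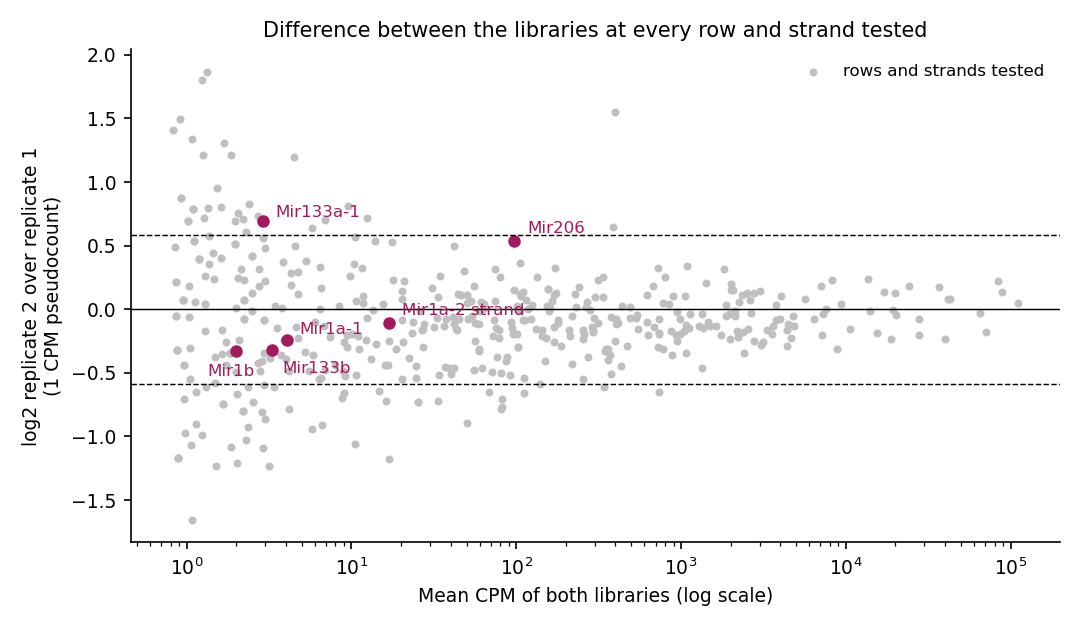
Log2 ratio of replicate 2 over replicate 1 (1 CPM pseudocount) against the mean CPM of both libraries (log scale) for each of the 472 rows and strands tested, in grey, with the 6 muscle features in red; dashed lines mark a ratio of 1.5 in either direction. Mir206 lies at 0.53, just inside the upper dashed line, and Mir133a-1 lies outside it at 0.69 without being called.

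Heart muscle miRNAs, the defining markers of the labelled tissue, were abundant in both libraries. The myosin intron miRNAs Mir208b, Mir208a and Mir499, known from heart muscle, reached a sum of 50718 CPM in the first library and 53387 in the second. Of 5 rows of the neuronal markers Mir124a and Mir9, 4 were at 0, and Mir9-3 held 2.51 and 1.49 CPM. All 5 have a run of 22 bases shared with another locus, and how many of their reads map to several places was not measured. Outside this fixed list, other rows known from neurons held counts. Mir137 held 83.1 CPM in replicate 1 and 52.7 CPM in replicate 2, Mir128-1 held 99.3 and 89.7 CPM, and Mir129-2 held 32.0 and 18.9 CPM. Lower rows were Mir128-2 (22.6 and 18.7 CPM), Mir219a-1 (15.1 and 11.3), Mir129-1 (6.64 and 4.47) and Mir219a-2 (4.85 and 4.31). Among these rows, Mir137 and Mir129-2 were called between the libraries, higher in replicate 1.

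Set against the heart muscle miRNAs, the deposited rows of the muscle loci were low. Rows with a shared run may lie below the mature miRNAs, so this does not give the level of miR-1 or miR-133 in the heart. Mir208b exceeded Mir206 525-fold (replicate 1, exact 95% interval 478 to 577) or 382-fold (replicate 2, 355 to 412), a mean log2 ratio of Mir206 over Mir208b of -8.81 ± 0.32. Against Mir208a that log2 ratio was -6.24 ± 0.41 and against Mir499 it was -4.24 ± 0.16. Per base of hairpin they were -8.73, -6.06 and -4.13. Each was larger than its spread between the libraries. Mir208b, Mir208a and Mir499 had log2 ratios of replicate 2 over replicate 1 of 0.08, -0.03 and 0.32, and none was called because each lay under the ratio of 1.5. Mir486, known from muscle and red cells, stood near Mir206 in level but was higher in replicate 1 (102 against 61.9 CPM, log2 -0.71, exact binomial test, adjusted p = 3.87e-13) and was called. Of the 4 other muscle miRNAs with a row, 1 was therefore called, lower in replicate 2. Mir486b has no row. The opposite strand of the Mir486 row held 14.5 CPM in replicate 1 and 6.46 CPM in replicate 2 and was also called. Whether these are reads of Mir486b was not tested.

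**Figure D5:**
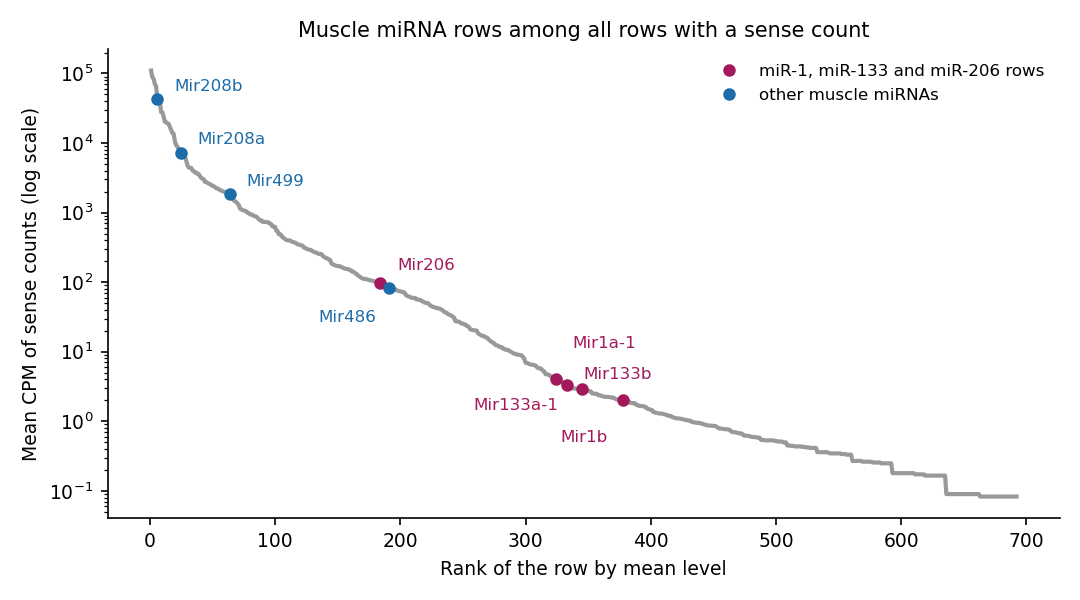
Mean CPM of sense counts (log scale) against rank for all rows with a sense count, as a grey line, with the muscle loci in red and the other muscle miRNAs in blue; Mir133a-2 has no count and is not drawn. Mir208b at 42964 CPM is near the top of the curve, Mir206 at 97.6 CPM and Mir486 at 81.8 CPM lie side by side, and the 4 other red points fall between 1.99 and 4.07 CPM.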

How the data were processed

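For each miRNA gene the authors deposited raw counts of reads in 3 columns: both strands, the gene's strand (sense) and the opposite strand. Alignment was to mm10 with GENCODE M4 as annotation, per the notes deposited with them. Names of the aligner and counter, and any trimming, were not given in the sources used here. Symbols and loci came from GENCODE M21 by identifier, with 1894 of 1973 matched. The 4 rows of read classes stayed out of library sizes. They and the gene rows added up to 12136246 reads in replicate 1 and 12282789 in replicate 2 in each of the count columns.

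Members and lists were chosen with earlier results of these data known. Named genes were the muscle loci, Mir208a, Mir208b, Mir499, Mir486, the markers of other cell types and the 3 rows nearest to Mir206. Of these markers, Mir9-1 and Mir142 have no row. The Mir142b row held 1555 CPM (replicate 1) and 1129 CPM (replicate 2) on its opposite strand, and whether these are reads of Mir142 was not tested. Mir137 and Mir219a-2 were not on the lists and were added after the values were seen. The heart muscle, skeletal muscle, liver, red cell, leukocyte and neuron marker lists are given in the report. The smooth muscle markers Mir143 and Mir145a summed to 85136 and 93532 CPM, and endothelial Mir126a stood at 74876 and 66025 CPM.

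With 1 group there was no contrast for a model across genes, so exact binomial, Poisson and Clopper-Pearson methods were used (Python 3.11.15, scipy 1.17.1, numpy 2.4.6, pandas 2.3.3; plots with matplotlib 3.10.9). The binomial and shared-run steps were tested on simulated data. TMM factors came from edgeR 4.0.16 and size factors from DESeq2 1.42.0 in R 4.3.3, as alternatives. Other alternatives were the denominator, strand, pseudocount, hairpin length, count minimum, ratio, run length and each library left out, and, chosen after the data were seen, the length used for the Mir1a-2 strand. Fisher's exact test within pairs was added after the data were seen. Ratios of loci use no pseudocount, so that the pair with a 0 is a bound. The form with 0.5 counts added, first listed as the default, is given as an alternative.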

Additional observations from a re-analysis of the deposited data

How the results depend on the processing

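With all reads of the library as denominator, the 6 rows summed to 52.5 CPM in place of 110 CPM. The bound of Mir1a-1 over Mir133a-2, 2.97 on the log2 scale, became 3.40 per base of hairpin, and fitted values of 5.58 and 4.61 with 0.5 or 1 count added are no bounds. The Mir1a-2 strand over Mir133a-1 fell from 2.62 to 1.78 per base when its length was that of the Mir1b row, an alternative chosen after seeing the data. Mir206 over Mir133b rose from 4.88 to 5.58 per base. Calls between libraries fell from 46 to 26 with a minimum of 50 counts and to 23 at a ratio of 2. Mir206, not called at 0.53 with total counts as offset, was called at 0.64 (TMM) and 0.65 (DESeq2), and its adjusted p in the exact binomial test ran from 3.10e-13 to 4.43e-09 over the alternatives. Leaving out either library moved the sum between 92.1 and 128 CPM, the 3 pair ratios between 2.87 and 3.06, 2.09 and 3.16, and 4.40 and 5.36, the log2 ratios of Mir206 to Mir208b, Mir208a and Mir499 between -9.04 and -8.58, -6.53 and -5.96, and -4.35 and -4.13, and the opposite share of the Mir1b row between 88.3% and 90.7%. With 2 libraries such a value lies within 1 SD of the mean by construction, so these ranges do not test stability. Under the other alternatives, 26 values kept their call, moved by less than 1 SD or, for counts, by less than 1.5 times. Depth limits the loci below 5 CPM, where each library holds at most 25 counts.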

Other observations

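Mir133c, a further locus of that name on chromosome 2 with no run of 18 bases or more shared with the others, held 0 counts on either strand in both libraries. Among 77 sense rows at a mean of 50 to 200 CPM, a window set after the values were seen, Mir206 had the highest log2 ratio of replicate 2 over replicate 1 (0.53), and the next was Mir138-2 at 0.36. The median of these rows was -0.09. Their absolute ratio reached that of Mir206 at 8 rows, itself included, and the other 7 were higher in replicate 1.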
